A study of Arabidopsis thaliana with 29 samples.

Results

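Phytochrome-interacting factors (PIFs) are basic helix-loop-helix (bHLH) transcription factors. Several of them accumulate in darkness, promote hypocotyl elongation and hold back greening. In light the phytochrome photoreceptors bind these and trigger their destruction. HY5, a transcription factor that promotes seedling development in light, recognises G-box elements that PIFs also recognise, and COP1 and DET1 restrain HY5. The transcripts of 10 genes, of PIFs and of related bHLH factors, were followed here and are called the family below. These are PIF1, PIF3, PIF4, PIF5, PIF6, PIF7, PIF8, PIL1, HFR1 and SPT. They were chosen by locus identifier from the 59999 loci of the count table, with earlier results of these data known, and all 10 passed the count filter. In PIL1 1 of the 3 WT libraries lay under the level that the filter asks for.

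The RNA came from whole 7-day-old Arabidopsis thaliana seedlings on medium with sucrose, under a white-light photoperiod of 16 h and nights of 8 h. The fusca group (3 libraries) is 2x35S::GFP-HY5/hy5, a hy5 mutant carrying HY5 fused to green fluorescent protein, in which seedlings showed the fusca phenotype. The GFP-HY5 group has the same genotype label with no such phenotype recorded. Its 3 columns are marked comp in the table, a mark the labels do not explain. They held equal values in all 60004 rows, so they were counted as 1 library and nothing in that group has a replicate check. The WT group (3 libraries) is the wild type. The transgene is driven by a 35S promoter, which is active in most tissues, and the labels do not give how many independent lines were used. They also do not state whether replicates came from separate cultures, so p-values measure the spread between these libraries only.

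Libraries held 11860094 to 12545563 counts over loci. Levels are CPM, reads of a gene relative to the library's size after adjustment by edgeR's TMM factors. HY5 itself (AT5G11260) stood at 129, 186 and 130 CPM in fusca, 77.3 in GFP-HY5 and 14.1, 16.1 and 12.1 in WT. Fusca replicate 2 stood apart: it differed at least 2-fold from the mean of the other fusca libraries at 1987 loci, while the count was 589 for replicate 1 and 522 in replicate 3. The summed level of 8 seed storage and oil-body genes was 202 CPM in that library, 2.22 and 2.07 in the other fusca libraries, 0.881 in GFP-HY5 and 1.72 to 4.69 in WT. The sum of 9 root genes was 6231 to 11692 CPM in fusca, 3044 in GFP-HY5 and 3649 to 3682 in WT, with 3 genes called higher and 4 lower. Most of that sum was PYK10. A call is an adjusted p under 0.05 in edgeR's quasi-likelihood test of fusca against WT. Of all loci tested 16.7% were called higher and 18.4% lower. The sum of 8 shoot genes was 249 to 340 CPM in fusca, 302 in GFP-HY5 and 262 to 285 in WT, with STM called higher (2.29 on the log2 scale) and FAMA lower (-2.44) among 7 tested. Much of this sum was ATML1, and GL1, too low to be tested, averaged 0.113 CPM in fusca and 1.51 in WT. No gene of these marker lists was at 0 in every library. The part of organ make-up in the results was not tested, and in whole seedlings fewer cells of a type and less RNA per cell cannot be told apart.

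The comparison of fusca with WT asks how the family's transcripts differ in seedlings that carry the transgene and show the phenotype. SPT, PIF6, PIF3, PIF1 and PIF4 rose in fusca, by about 1.69-fold (PIF4) to 3.18-fold (SPT) in mean CPM. No member was called lower. The other 5 members did not pass the threshold, an adjusted p of 0.05 in edgeR's quasi-likelihood test across 21820 loci. Thus 5 of 10 members were called, all higher, where 35.1% of all loci tested were called, 16.7% higher and 18.4% lower. Fold changes were above 0 for 8 of 10 members and for 53.9% of all loci, and the median log2 fold change was 0.81 over the members and 0.05 over all loci. Every fusca library lay above every WT library for 7 members, where 25.4% of all loci did so, and for no member did every fusca library lie below every WT library, as 24.4% of all loci did.

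**Figure D1:**
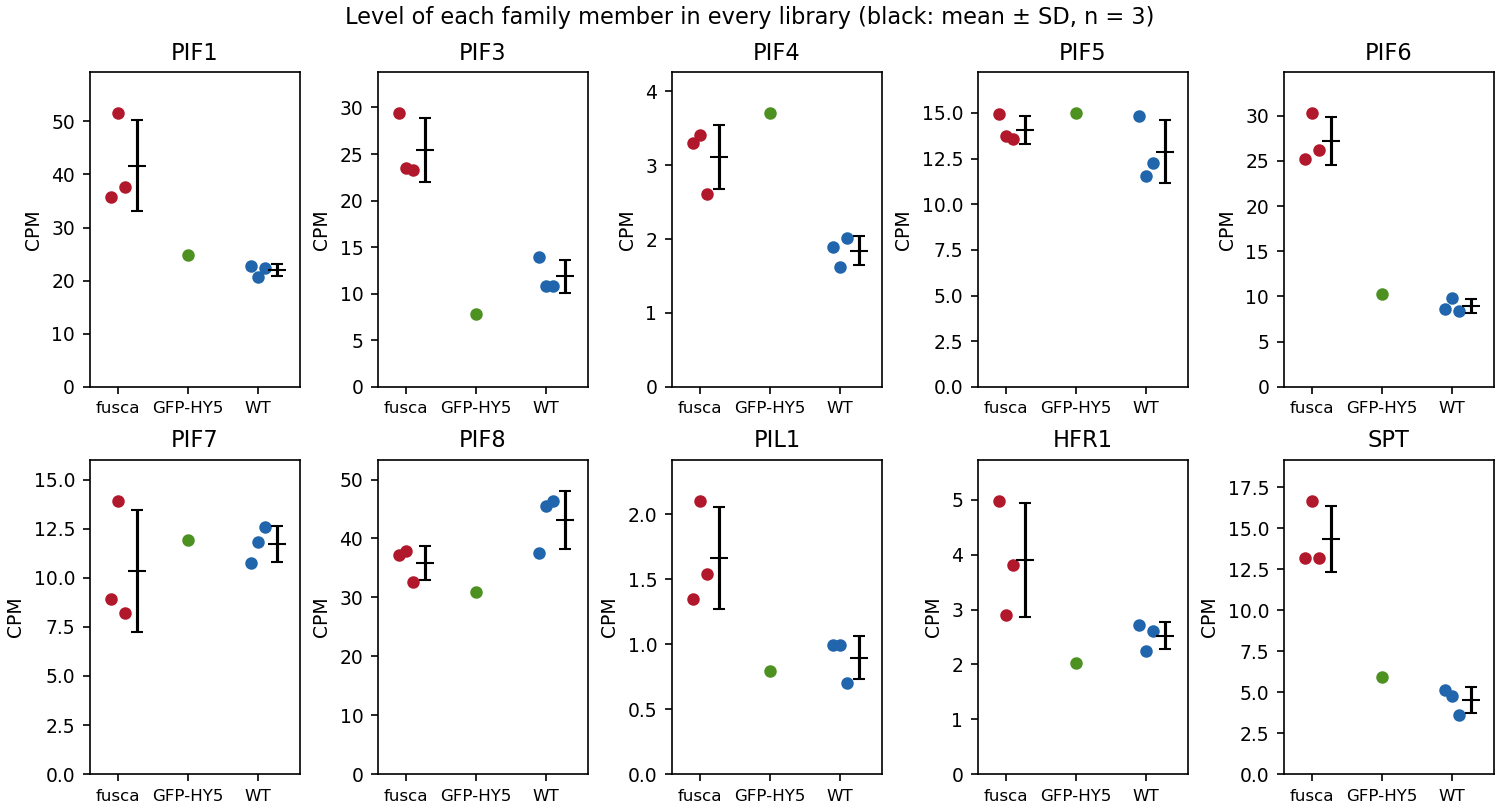
Level (CPM, linear axis from 0, scaled separately for each gene) of the 10 family members in every library, with fusca in red, GFP-HY5 in green and WT in blue; black marks give the mean and SD over 3 libraries. The fusca points of SPT and PIF6 lie far above the WT points, the PIF5, PIF7 and PIF8 points overlap, and PIF3 in GFP-HY5 lies under WT.

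The members that carry most of the response of etiolated seedlings were examined first. PIF1, also listed as PIL5 (AT2G20180), holds back seed germination in the dark and represses chlorophyll and carotenoid synthesis. It stood at 35.8, 51.5 and 37.6 CPM in fusca and at 22.8, 20.6 and 22.4 CPM in WT. All fusca libraries were above all WT libraries, and replicate 2 was the highest. This gave a log2 fold change of 0.92 (standard error 0.17, edgeR adjusted p = 0.00218).

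PIF3 (AT1G09530), the founding member, represses greening in the dark. Its levels were 29.4, 23.5 and 23.3 CPM in fusca and 13.9, 10.8 and 10.9 CPM in WT, with no overlap. Its log2 fold change was 1.10 (standard error 0.17, edgeR adjusted p = 0.000896).

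PIF4 (AT2G43010) promotes elongation growth in warmth and shade. It was a low transcript, with 49, 47 and 39 counts in fusca and 21, 18 and 20 counts in WT. The corresponding levels were 3.30, 3.41 and 2.61 CPM in fusca and 1.90, 1.62 and 2.01 CPM in WT, again without overlap. Its log2 fold change was 0.75 (standard error 0.25, edgeR adjusted p = 0.0438), close to the threshold. The call was lost without WT replicate 1, 2 or 3 (adjusted p = 0.107, 0.149 and 0.0802) and without fusca replicate 1 (adjusted p = 0.103), with log2 fold changes of 0.69 to 0.85 in these edgeR fits. Over all alternatives its adjusted p lay between 0.00291 and 0.149.

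PIF5, also listed as PIL6 (AT3G59060), acts with PIF4 in growth and shade responses. Its levels were 14.96, 13.7 and 13.6 CPM in fusca and 14.8, 11.5 and 12.3 CPM in WT, and the groups overlapped. On the log2 scale the fold change was 0.13 with a 95% interval of -0.23 to 0.49 (edgeR adjusted p = 0.572). The members of this subgroup thus had unlike values: the fitted differences of PIF1 and PIF3 were close to 1 on the log2 scale, and the interval of PIF5 ended under 0.5.

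PIF6, also listed as PIL2 (AT3G62090), is known from seed dormancy. It had 25.2, 30.3 and 26.1 CPM in fusca and 8.59, 9.82 and 8.34 CPM in WT. All fusca libraries were above all WT libraries, and the groups were far apart. Its log2 fold change was 1.61 (standard error 0.15, edgeR adjusted p = 4.05e-05), which ranked it 1166 by p among all loci, the first of the members.

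PIF7 (AT5G61270) is the main PIF of rapid auxin synthesis in shade. It stood at 8.89, 13.9 and 8.22 CPM in fusca and at 10.8, 11.8 and 12.6 CPM in WT. Fusca replicates 1 and 3 lay under all WT libraries and replicate 2 above them. For the group as a whole the log2 fold change was -0.18 with a 95% interval of -0.68 to 0.32 (edgeR adjusted p = 0.574). Without fusca replicate 2 it was -0.45 and passed the threshold (edgeR adjusted p = 0.0253, range over all alternatives 0.0253 to 0.912). That fit called 10896 of 22128 loci, where the fit with all libraries called 7651 of 21820.

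PIF8, also listed as UNE10 (AT4G00050), restrains responses to far-red light. It had 37.1, 37.9 and 32.6 CPM in fusca and 37.5, 45.5 and 46.4 CPM in WT, with an overlap at WT replicate 1. The log2 fold change was -0.27 with a 95% interval of -0.59 to 0.06 (edgeR adjusted p = 0.186). Without fusca replicate 2 it was -0.31 and passed narrowly (edgeR adjusted p = 0.0496, range over all alternatives 0.0496 to 0.529), in a fit that called 10896 of 22128 loci.

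The related factors that act around the PIFs followed. HFR1 (AT1G02340) is an atypical member that pairs with PIFs and keeps them off DNA, and COP1 targets it for degradation. Its levels were 4.99, 2.90 and 3.81 CPM in fusca and 2.71, 2.25 and 2.61 CPM in WT, so the groups did not overlap but fusca replicate 2 came close to WT. The log2 fold change of 0.63, with a 95% interval of 0.02 to 1.24, did not pass after adjustment (edgeR adjusted p = 0.103). Without fusca replicate 2 it was 0.80 and passed (edgeR adjusted p = 0.0145, range over all alternatives 0.0103 to 0.303), again where 10896 of 22128 loci were called.

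PIL1 (AT2G46970) is induced within minutes of shade and modulates shade growth. It was the lowest member, with 20, 29 and 23 counts in fusca and 11, 11 and 7 counts in WT. In scaled units this was 1.35, 2.104 and 1.54 CPM in fusca and 0.994, 0.991 and 0.704 CPM in WT, without overlap. The log2 fold change was 0.87 (standard error 0.33) and missed the threshold (edgeR adjusted p = 0.0708). At these counts the 95% interval was wide, 0.12 to 1.63.

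SPT (AT4G36930), or SPATULA, shapes carpels and fruits and limits leaf and cotyledon growth. It stood at 13.2, 16.7 and 13.2 CPM in fusca and at 5.15, 4.78 and 3.62 CPM in WT. All fusca libraries were above all WT libraries by a wide margin. The log2 fold change, 1.66 with a standard error of 0.20, was the highest fitted value of the family (edgeR adjusted p = 0.000182). Its interval overlapped that of PIF6, and without WT replicate 3 PIF6 was higher, at 1.59 against 1.56.

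**Figure D2:**
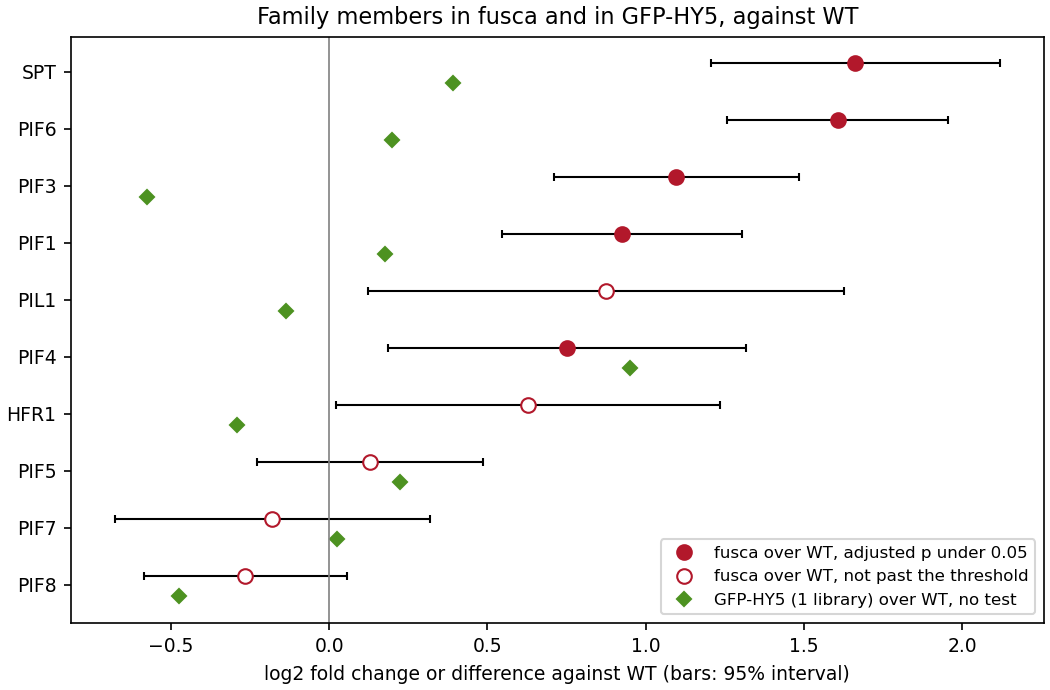
Log2 fold change of each member in fusca over WT with its 95% interval (red circles, filled where the adjusted p was under 0.05) and log2 difference of the single GFP-HY5 library over WT (green diamonds, no test), ordered by the fusca value. SPT (1.66) and PIF6 (1.61) stand highest, PIF8 (-0.27) lowest, and PIF3 lies at 1.10 in fusca and -0.58 in GFP-HY5.

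The scaling sets the zero of these values. TMM factors were 1.11 to 1.26 in fusca and 0.839 to 0.889 in WT. When library size alone was used, the median of all loci shifted by 0.44 on the log2 scale. The members PIF5, PIL1 and HFR1 then passed the threshold as well, and PIF7 and PIF8 changed sign, to 0.25 and 0.18 without passing it. Upper-quartile factors shifted the median by 0.15, and PIL1 and HFR1 passed. SPT, PIF6, PIF3 and PIF1 were called higher under all 14 alternatives.

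**Figure D3:**
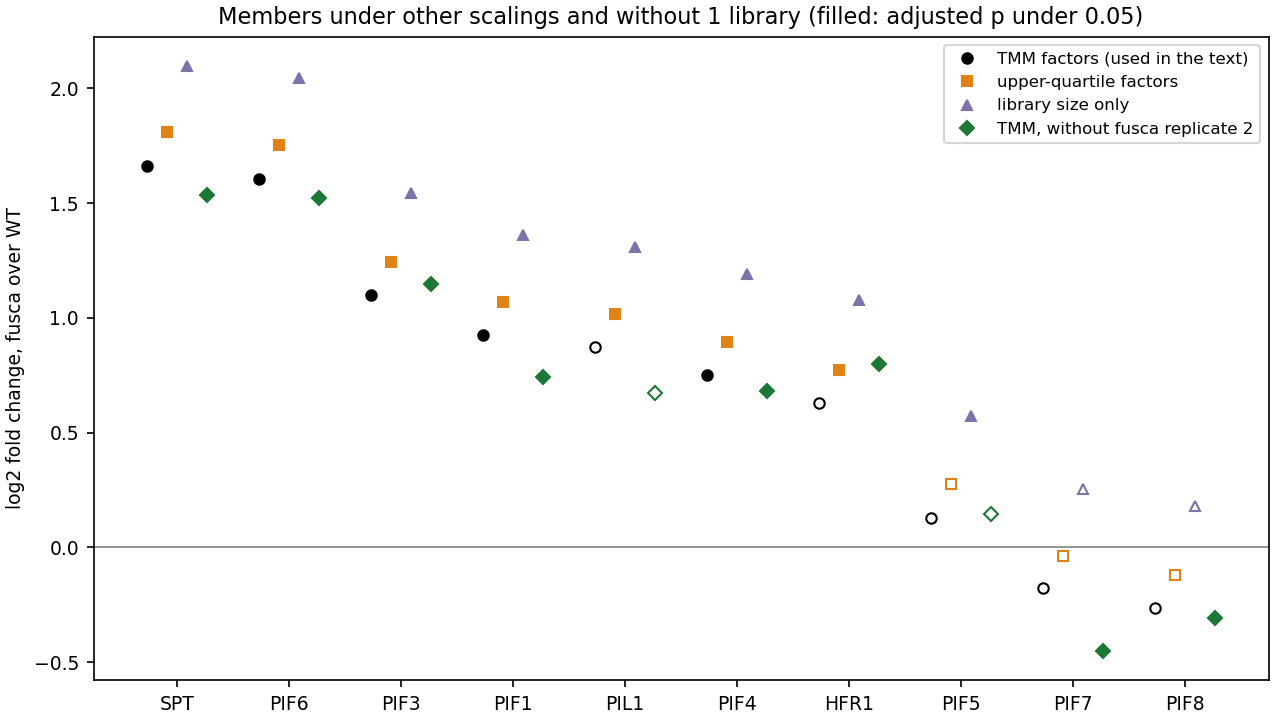
Log2 fold change in fusca over WT for each member with TMM factors (black circles), upper-quartile factors (orange squares), library size only (purple triangles) and TMM without fusca replicate 2 (green diamonds); filled symbols have an adjusted p under 0.05. The scalings move all members by a like amount, and without fusca replicate 2 HFR1 stands above PIF1, PIL1 and PIF4, and PIF7 below PIF8. PIF7 and PIF8 cross 0 with library size only.

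The family together stood at 174, 196 and 163 CPM in fusca, 113 in GFP-HY5 and 119, 120 and 122 in WT. Its raw counts were 2586, 2701 and 2433 in fusca, 1282 in GFP-HY5 and 1318, 1329 and 1212 in WT. Ratios within a library do not depend on the scaling. PIF8, the most abundant member in WT, made up 20.2 ± 0.985% of the family's counts in fusca and 35.9 ± 3.79% in WT (SD, n = 3). PIF6 made up 15.3 ± 0.810% in fusca and 7.42 ± 0.701% in WT, and SPT 8.06 ± 0.469% in fusca and 3.76 ± 0.705% in WT (SD, n = 3). PIF1 was on average the largest part in fusca, with 23.3 ± 2.86%, against 18.3 ± 0.953% in WT (SD, n = 3). Divided by the PIF8 count of the same library, 7 of the other 9 members (PIF1, PIF3, PIF4, PIF6, PIL1, HFR1 and SPT) lay higher in every fusca library than in every WT library, and none lower. Over all loci tested 34.7% lay higher in this way and 15.8% lower. The choice of PIF8 as the divisor was made with the values known.

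**Figure D4:**
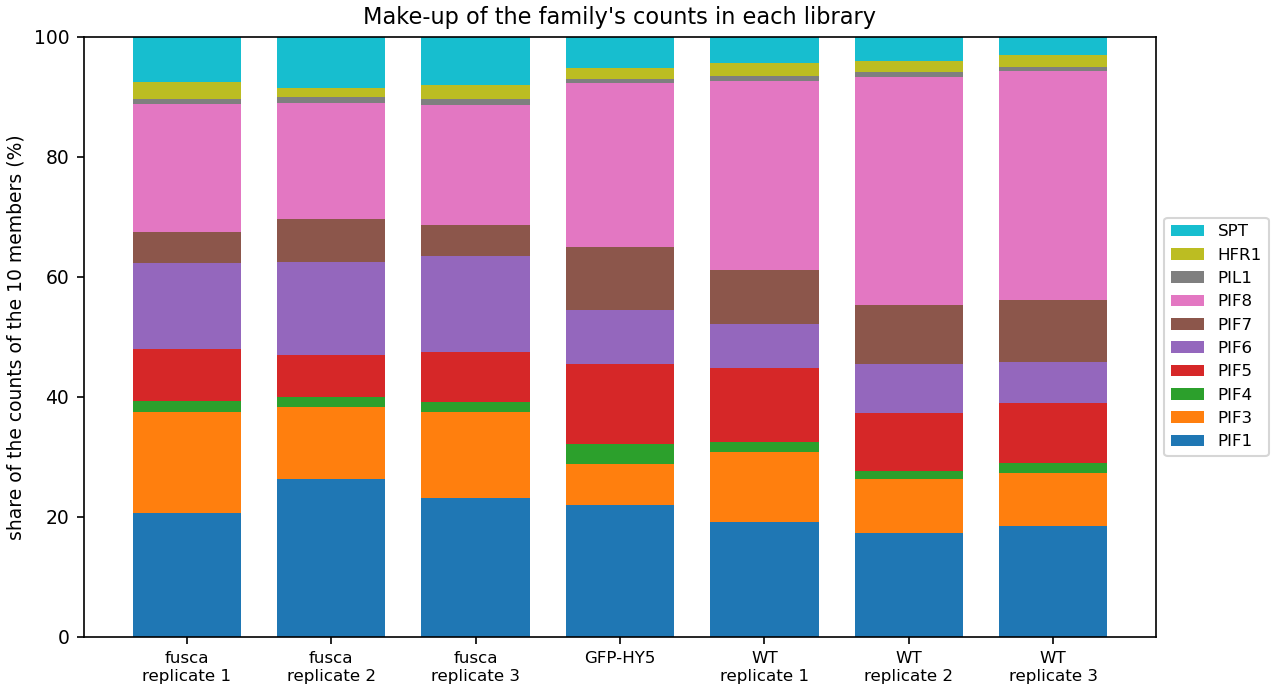
Share of the family's counts held by each member (stacked to 100%) in the 3 fusca libraries, the GFP-HY5 library and the 3 WT libraries. PIF8 (pink) is narrower in fusca, at 19.4 to 21.3%, than in WT, at 31.5 to 38.1%, and PIF6 (purple) and SPT (cyan) are wider.

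Levels between genes were compared per kilobase of gene span, introns included, which is an approximate length. PIF8 stood first in every group, with 14.1 ± 1.13 CPM per kb in fusca (SD, n = 3), 12.1 in GFP-HY5 and 17.0 ± 1.93 in WT (SD, n = 3), and PIF1 second. In fusca the ranges of PIF8, PIF1 and PIF6 overlapped, at 12.8 to 14.9, 12.0 to 17.3 and 11.6 to 14.0 CPM per kb. In WT PIF8 at 14.7 to 18.2 and PIF1 at 6.91 to 7.63 CPM per kb were separated, as were PIF1 and the next member, PIF7, at 4.73 to 5.52. The WT ranges of PIF7 and PIF5 (3.93 to 5.05) overlapped, and so did those of PIF5 and PIF6 (3.86 to 4.54). PIF3 (2.78 to 3.58), SPT (1.57 to 2.24), HFR1 (0.995 to 1.20), PIF4 (0.543 to 0.673) and PIL1 (0.290 to 0.409) followed in WT without overlap.

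The reads of overlapping genes are uncertain. In the RefSeq gene table PIF1 overlaps AT2G20170, PIF6 overlaps AT3G62080 and the lncRNA locus AT3G09745, and PIF7 overlaps AT5G61260, and the table does not give strands. AT2G20170 had 151, 212 and 124 counts in fusca and 43, 52 and 49 in WT, and it rose in fusca like PIF1 (edgeR adjusted p = 0.00337). AT3G62080 had 156, 192 and 170 counts in fusca and 92, 94 and 86 in WT (edgeR adjusted p = 0.0509). AT3G09745 was not analysed here. The counts are of the sense strand, as the deposited table is named, and whether reads of a partner enter a member's count was not tested.

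The GFP-HY5 library was compared with WT to describe seedlings of the same labelled genotype without the phenotype. On the log2 scale with a prior count of 2, no member reached a 2-fold difference from the WT mean, where 2.05% of all loci were at least 2-fold higher and 1.02% lower. PIF4 stood at that limit, with 3.70 CPM in GFP-HY5 (42 counts; exact Poisson 95% interval 2.67 to 5.00 CPM, counting error only) and 1.84 ± 0.200 CPM in WT (SD, n = 3), a ratio of 2.01 and a log2 difference of 0.95. With library size only, or without WT replicate 3, the log2 difference was 1.01. Its value was also above the 3 fusca libraries, whose highest value, 3.41 CPM, lies inside the Poisson interval. SPT was at 5.90 CPM in GFP-HY5 (interval 4.58 to 7.50) and 4.52 ± 0.799 in WT (SD, n = 3). PIF6 was at 10.2 CPM in GFP-HY5 (interval 8.45 to 12.3) and 8.92 ± 0.795 in WT (SD, n = 3). For both SPT and PIF6 this library lay above the WT range and under all fusca libraries. Both intervals include values of WT libraries, so the place above WT is within counting error.

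PIF3 lay on the other side of WT. It had 7.84 CPM in GFP-HY5 (interval 6.30 to 9.65), under all WT libraries, whose lowest value was 10.8 CPM. PIF8 at 30.8 CPM (interval 27.7 to 34.3) and HFR1 at 2.03 CPM (interval 1.29 to 3.04) were also under the WT libraries, and the interval of HFR1 includes the WT values. In all, 5 members lay above the WT range, 3 below and 2 inside, where 29.5% of all loci lay above it and 28.8% below.

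Fusca was also set beside the GFP-HY5 library, which shares the genotype label, again without a test. On the same scale PIF3, PIF6 and SPT were at least 2-fold higher in fusca, with log2 differences of 1.67, 1.39 and 1.25, where 7.58% of all loci were at least 2-fold higher and 11.7% lower. As plain ratios of mean CPM these were 3.24, 2.66 and 2.43, and PIL1 also exceeded 2, with 2.097. PIL1, HFR1 and PIF1 differed by 0.91, 0.86 and 0.73 and PIF8 by 0.21. PIF4, PIF7 and PIF5 had differences of -0.25, -0.24 and -0.09, which became 0.11, 0.14 and 0.28 with library size only. The GFP-HY5 value was under all fusca libraries for 7 members, where 32.3% of all loci were, and above all of them for 2, PIF4 and PIF5, where 32.2% were. For PIF5 this was 14.98 CPM against at most 14.96 in fusca. The GFP-HY5 Poisson intervals of PIF4 and PIF5, 2.67 to 5.00 and 12.8 to 17.4 CPM, include fusca values. Those of PIF8, HFR1 and PIL1, which lay under fusca, do so too. This comparison and the one with WT use the same libraries in part, so their values are not independent.

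The genes with profiles most like a member's were sought among 15990 nuclear genes with a mean of at least 5 CPM, for the 5 members called. Likeness was the root mean square difference in log2 CPM relative to WT over the 7 libraries. AT4G12760 was nearest to PIF1, at 0.04, and AT5G07610 nearest to SPT, at 0.09. CAD5, a cinnamyl alcohol dehydrogenase of lignin synthesis, was nearest to PIF6, at 0.10, with 82.8 CPM in fusca, 31.7 in GFP-HY5 and 29.4 in WT as group means. AT4G15765 was nearest to PIF3, at 0.14, and FRL1 nearest to PIF4, at 0.19. NEK4 and PMT5 followed for PIF1, AT1G11210 and NET4B for PIF3, AT3G49320 and TIP2;3 for PIF4, NUB1 and AT4G11211 for PIF6, and PP2-B11 and RS31a for SPT.

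Genes that PIFs are known to activate were read in the same fit. IAA29, YUC8, ST2A and PKS4, which belong to auxin signalling, auxin synthesis, jasmonate sulfation and phototropism, rose in fusca together with ATHB2, HAT2 and YUC2. Of 20 listed loci 19 were tested, 7 were called higher and 1 lower, where 16.7% of all loci were called higher and 18.4% lower, with a median log2 fold change of 0.65, against 0.05 over all loci. The list includes PIL1 and HFR1, which were not called. Without them 17 of 18 loci were tested, with 7 called higher, 1 lower and a median of 0.65. ACS8 was too low to be tested. IAA29 and PKS4 were under the filter level in every WT library and were tested because fusca expressed them, so the counts of this list give no support by themselves.

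IAA29 (AT4G32280) stood at 5.996, 7.40 and 7.35 CPM in fusca, 0.881 in GFP-HY5 and 0.633, 0.811 and 0.603 in WT. The fitted log2 fold change over WT was 3.32. It was tested only through fusca, so its p-value is not given as support. YUC8 (AT4G28720) had 8.69, 5.37 and 6.02 CPM in fusca, 1.32 in GFP-HY5 and 2.44, 1.62 and 1.71 in WT, a change of 1.79 (edgeR adjusted p = 0.000965). ST2A (AT5G07010) had 6.94, 6.46 and 6.49 CPM in fusca, 2.47 in GFP-HY5 and 1.81, 2.25 and 1.51 in WT, a change of 1.83 (edgeR adjusted p = 0.000226). For all 3 genes fusca lay above both other groups without overlap. The GFP-HY5 value was above the WT libraries for IAA29 (10 counts) and ST2A (28 counts) and below them for YUC8 (15 counts). Its Poisson intervals, 0.423 to 1.62, 1.64 to 3.57 and 0.740 to 2.18 CPM in that order, each include WT values. Of all loci 29.5% lay above the WT range in this library and 28.8% below. PKS4 (AT5G04190) rested on few counts, 16, 33 and 15 in fusca and 3, 4 and 1 in WT, with a fitted change of 2.53. Like IAA29 it was tested only through fusca.

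PAR2 (AT3G58850), which antagonises PIF activity and is induced by shade, fell instead. It had 2.22, 1.67 and 2.34 CPM in fusca, 6.26 in GFP-HY5 and 4.70, 6.04 and 6.33 in WT, which is -1.44 on the log2 scale (edgeR adjusted p = 0.00126). XTR7 (XTH15), a cell wall enzyme of shade growth, and CKX5, a cytokinin oxidase, were the most abundant loci that missed the threshold, with log2 fold changes of 0.37 and 0.39.

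The genes listed here as repressed by PIFs in the dark were all lower in fusca. They serve chlorophyll, carotenoid and light-harvesting functions, and all 6 were called lower, where 18.4% of all loci were. Their median was -3.61 on the log2 scale. The list was chosen with earlier results of these data known, and other genes of these functions were not examined here. The count therefore gives no support by itself. PORC (AT1G03630), a protochlorophyllide oxidoreductase, had 13.1, 14.4 and 13.2 CPM in fusca, 240.3 in GFP-HY5 and 218, 252 and 282 in WT (log2 fold change -4.21, edgeR adjusted p = 5.01e-07). PSY (AT5G17230), phytoene synthase, had 31.3, 27.0 and 29.6 CPM in fusca, 269.9 in GFP-HY5 and 314, 315 and 352 in WT (log2 fold change -3.48, edgeR adjusted p = 6.9e-07). GFP-HY5 lay inside the WT range for PORC and under it for PSY, and every fusca library was far below both. LHCA1 changed by -4.68, GLK1 (listed as GPRI1) by -3.73, CHLH (listed as GUN5) by -3.30 and HEMA1 by -2.12, each with an edgeR adjusted p of at most 5.51e-06. Among the list loci named here, PSY, PORC, XTR7, CKX5, EBF2, BES1, BIN2 and AT3G13670 overlap another gene in the RefSeq table, so their counts are uncertain.

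Among the partners and antagonists of PIFs, HEC1, KDR, PRE2 and IBH1 rose in fusca. HEC1 (AT5G67060), a bHLH factor of gynoecium development that also binds PIFs, stood at 21.4, 21.0 and 20.0 CPM in fusca, 1.41 in GFP-HY5 and 1.63, 2.34 and 0.905 in WT, a change of 3.66 on the log2 scale (edgeR adjusted p = 8.22e-06). Its relative HEC2 (AT3G50330) had 24, 41 and 20 counts in fusca, 0 in GFP-HY5 and 0, 0 and 1 in WT. The ratio of summed scaled counts was 62.6, with an exact counting interval of 10.9 to 2502. KDR, or PRE6 (AT1G26945), a small helix-loop-helix protein that sequesters HFR1, had 34.2, 63.1 and 40.4 CPM in fusca, 11.2 in GFP-HY5 and 7.86, 8.47 and 10.9 in WT, a change of 2.34 (edgeR adjusted p = 7.96e-05). HEC2 had at most 1 count in any library outside fusca, and fusca replicate 2 was the highest library for HEC2 and KDR.

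PRE2 (listed as BNQ2) and IBH1 rose by 1.29 and 0.82 on the log2 scale (edgeR adjusted p = 0.00221 and 0.0158). In all, 14 of 17 loci were tested, 5 were called higher and 1, PAR2, lower, where 16.7% of all loci were called higher and 18.4% lower. HEC2 is among them and was tested only through fusca, so the count gives no support by itself. The median was 0.36. Setting HEC2 to its lower bound cannot change it, since that bound still lies above the middle of the list. BES1 and BIM1, partners from brassinosteroid signalling and the most abundant loci not called, had log2 fold changes of 0.17 and -0.02. HEC3, PRE4 (BNQ3) and PRE5 were too low to be tested.

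Of 12 loci for the turnover of PIF proteins, BOP1, LRB1 and EBF2, which encode substrate adaptors of ubiquitin ligases, were called higher, with log2 fold changes of 1.01, 0.63 and 0.62, and none was called lower, where 16.7% of all loci were called higher and 18.4% lower. The median was 0.12. BOP1 had 2.56, 4.64 and 3.41 CPM in fusca, 2.82 in GFP-HY5 and 1.99, 1.53 and 1.71 in WT. None of the loci of this list was called without WT replicate 2 or without WT replicate 3, and 6 were called without fusca replicate 2. Over all loci these fits called 2509 of 22294, 2678 of 22320 and 5368 of 22128 higher, in that order. The kinase gene BIN2 stood at 241 ± 14.4 CPM in fusca and 241 ± 14.2 in WT (SD, n = 3), with a difference of 0.00 on the log2 scale (edgeR adjusted p = 0.992), and the abundant locus AT3G13670 had a value of 0.09.

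**Figure D5:**
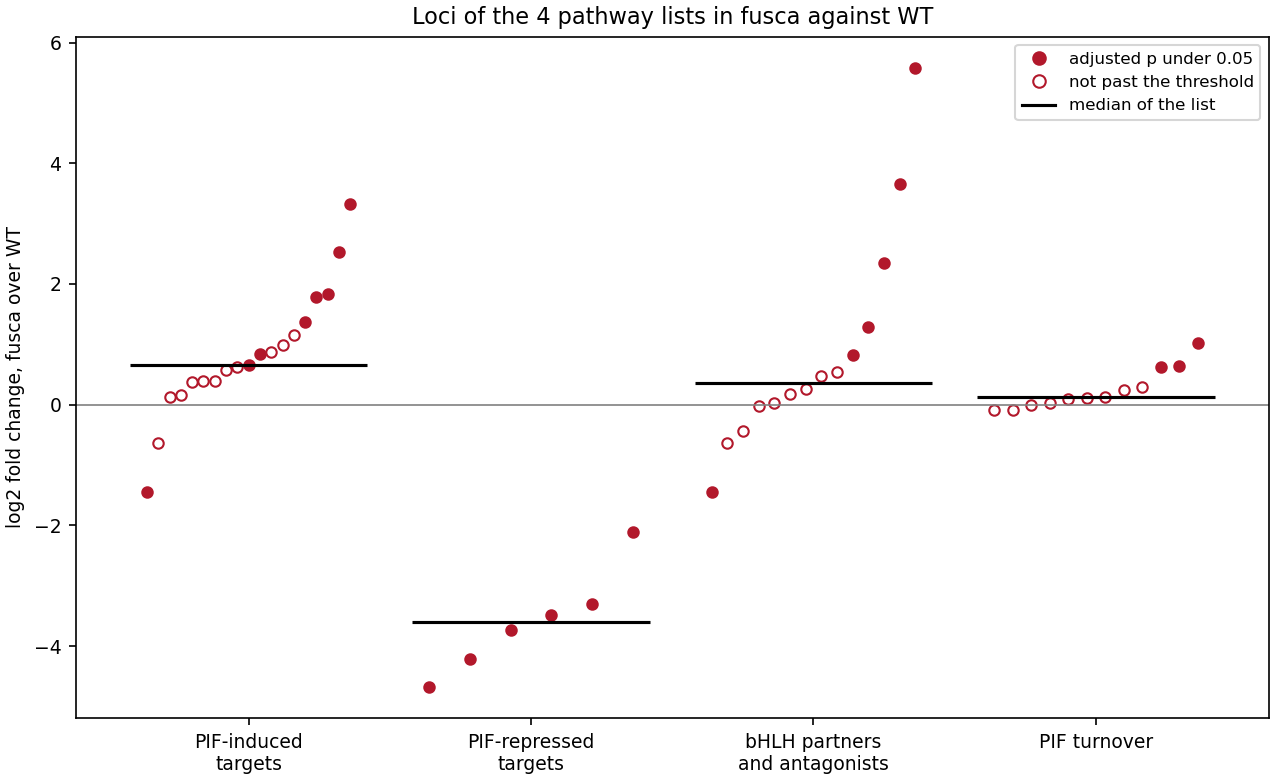
Log2 fold change in fusca over WT for each tested locus of the 4 pathway lists, in rising order within a list; filled circles have an adjusted p under 0.05 and black lines are medians (0.65, -3.61, 0.36 and 0.12). The 6 PIF-repressed targets all lie below -2, and the highest point, HEC2, is a fitted value that rests on 1 count in WT.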

How the data were processed

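The 9 RNA-seq columns of 1 deposited table were used; the 20 ChIP-seq samples of the series were not analysed here. The authors deposited raw read counts per locus, of the sense strand as the table is named. Trim Galore, STAR, deepTools and HTSeq with build TAIR10 are named in the submitters' processing notes, without versions. The last 5 rows name no locus and were left out: reads on no feature were 48.4 to 48.9% of each column and ambiguous reads 0.572 to 0.798%.

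Equal columns were merged, which left 7 libraries. Loci were kept by filterByExpr on WT and fusca, given TMM factors and fitted in edgeR 4.0.16 under R 4.3.3 (glmQLFit, glmQLFTest), with Benjamini-Hochberg adjustment over 21820 loci. Standard errors are the log2 fold change over the root of the F statistic, and intervals use the test's degrees of freedom. Differences with GFP-HY5 use log2 CPM at a prior count of 2. Poisson intervals cover counting error only. DESeq2 1.42.0, other scalings, other filters and fits without a library were alternatives. On simulated counts of 20950 loci, with 100 loci changed 4-fold and 100 changed 2-fold, 94% and 67% were recovered in fusca against WT, and 15 of 176 calls were false. The changes were balanced up and down, every library was drawn from the WT means, and no library stood apart as fusca replicate 2 did. Far more loci are called in the data, so these rates need not carry over to them.

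The members, the lists and the naming rule were chosen with earlier results of these data known. The rule names all members, HY5, up to 5 called loci of a list with the largest change and the 2 most abundant not called; ATHB2, HAT2, YUC2, HEMA1 and IBH1 were named after their values were seen, as were loci too low to be tested. All 86 loci of the lists matched RefSeq's TAIR10.1 gene table, used for names, spans and overlaps only, so no coordinates are given.

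Samples with the same replicate number were not paired, since the deviations of fusca and WT libraries with the same number correlated at -0.045, -0.115 and -0.200.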

Additional observations from a re-analysis of the deposited data

How the results depend on the processing

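Of the members, SPT, PIF6, PIF3 and PIF1 kept their direction and call under all 14 alternatives, with log2 fold changes of 1.54 to 2.097, 1.52 to 2.05, 0.98 to 1.54 and 0.74 to 1.36. PIF4 lost its call in 7, among them DESeq2 (adjusted p = 0.131), no count filter (edgeR adjusted p = 0.0684) and the replicate block (edgeR adjusted p = 0.102). With library size only, PIF7 and PIF8 reversed, to 0.25 and 0.18; 8 members, 15 PIF-induced, 8 partner and 9 turnover loci were then called higher, and over all loci 10174 were called higher and 2588 lower, where the TMM fit had 3639 and 4012. With upper-quartile factors 11 PIF-induced loci were called higher and 61.1% of all calls were higher, against 47.6% with TMM. Without a count filter 2 partner loci were called lower, where 4199 of 33090 loci were. Leaving out 1 library gave 4 to 6 members higher and 0 to 2 lower, and 5 to 9 PIF-induced loci higher and 1 to 2 lower. It gave 4 to 6 partner loci higher and 1 to 3 lower, and 0 to 6 turnover loci higher. Over all loci the same fits called 2509 to 5368 higher and 3080 to 5528 lower, of 22094 to 22320 tested. All 6 PIF-repressed loci stayed lower throughout. The cause of these shifts was not tested. The replicate block called 6588 loci in place of 7651 and 4 members in place of 5; no fusca library correlated best with the WT library of its number, and the block's lost call is not read as a weaker effect. PIL1 had 7 to 29 counts a library in fusca and WT and passed with library size only (edgeR adjusted p = 0.00798) and upper-quartile factors (edgeR adjusted p = 0.0349).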
